A study of Mus musculus with 8 samples.

Results

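The nuclear receptor genes described here are a fixed list of 10: the NR4A orphan receptors Nr4a1, Nr4a2 and Nr4a3, the fatty acid sensors Pparg and Ppard, the oxysterol receptors Nr1h3 and Nr1h2, their shared partner Rxra, the retinoic acid receptor Rara and the glucocorticoid receptor Nr3c1. They were taken by name, 1 probe set per gene, out of 19938 genes with a probe set on the array. The cells were mouse bone marrow-derived macrophages, which are cultured from marrow progenitors and engulf particles. The platform annotation gave a probe set of 1 symbol for 9 of the 10, and Nr1h2, which encodes LXR-beta, is not analysed here. Cells received IFN-gamma and LPS, IL-4 and IL-13, or LPS, IL-4 and IL-13 together, each for 6 h, or were left untreated, with 2 arrays in each of the 4 groups. The labels give no dose, mouse strain or age, and all 4 groups share the same cell type and the same kind of array. LPS, a lipid-linked sugar of the outer membrane of bacteria, triggers Toll-like receptor signalling, and IFN-gamma, IL-4 and IL-13 are lymphocyte cytokines. There was no group with only LPS or only IFN-gamma, and both LPS groups therefore differ from each other in IFN-gamma as well as in IL-4 and IL-13.

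Nuclear receptors are transcription factors whose activity is set by small lipophilic molecules. PPAR, LXR and RAR proteins bind DNA as pairs with RXR and respond to fatty acid derivatives, oxysterols and retinoic acid. In macrophages PPAR-gamma and the LXRs are known for lipid uptake and cholesterol efflux and for restraining inflammatory genes. The NR4A proteins have no established ligand, and their activity follows how fast their genes are transcribed after a stimulus. The glucocorticoid receptor waits in the cytoplasm until it binds a steroid.

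Values are log2 signals, so a difference of 1 is a doubling, and levels were compared between groups of 1 gene, not between genes. Array medians lay between 6.12 and 6.20. The 7 macrophage markers averaged 11.78 to 12.20 on the 8 arrays, and the lists of 7 other cell types averaged 4.94 to 7.12, although signals of different probe sets are not on 1 scale. Changes are log2 fold changes ± SE from limma, over n = 2 arrays per group. A gene rose or fell where its Benjamini-Hochberg adjusted p over all 19938 genes was under 0.05. The labels do not say whether replicate arrays hold RNA of separate cultures or mice, so p-values measure only how these samples spread, and that spread may be technical. RNA came from whole cultures, in which fewer cells of a type and less RNA per cell cannot be told apart. The median of all genes lay 0.105 above untreated in the IFN-gamma/LPS arrays, 0.07 in the IL-4/IL-13 arrays and 0.09 in the LPS/IL-4/IL-13 arrays.

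Each treatment left a different receptor profile. IFN-gamma/LPS raised all 3 NR4A genes and Nr3c1 and lowered Pparg, Ppard, Rxra and Rara. IL-4/IL-13 raised Rara and lowered Nr4a1, Nr1h3, Rxra and Nr3c1. LPS/IL-4/IL-13 raised Nr3c1, Nr4a2, Nr4a3, Ppard and Rara and lowered Rxra, Pparg and Nr4a1. Against untreated cells 8 of the 9 measured genes changed under IFN-gamma/LPS, where 51.9% of all genes did, and 8 of 9 under LPS/IL-4/IL-13, where 45.6% did. In untreated cells 8 of the 9 had signals above the median of all genes, and the shares over all genes were not matched on signal. Under IL-4/IL-13 5 of 9 changed, where 20.2% of all genes did, and 3 of 9 without untreated array 1, when 2 and not 4 fell. Of the 5 that rose under LPS/IL-4/IL-13, 3 were called without untreated array 2. The 3 comparisons share the untreated arrays. The median change of the 9 genes was 0.07, -0.23 and 0.31 under IFN-gamma/LPS, under IL-4/IL-13 and under LPS/IL-4/IL-13, against 0.105, 0.07 and 0.09 over all genes.

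**Figure D1:**
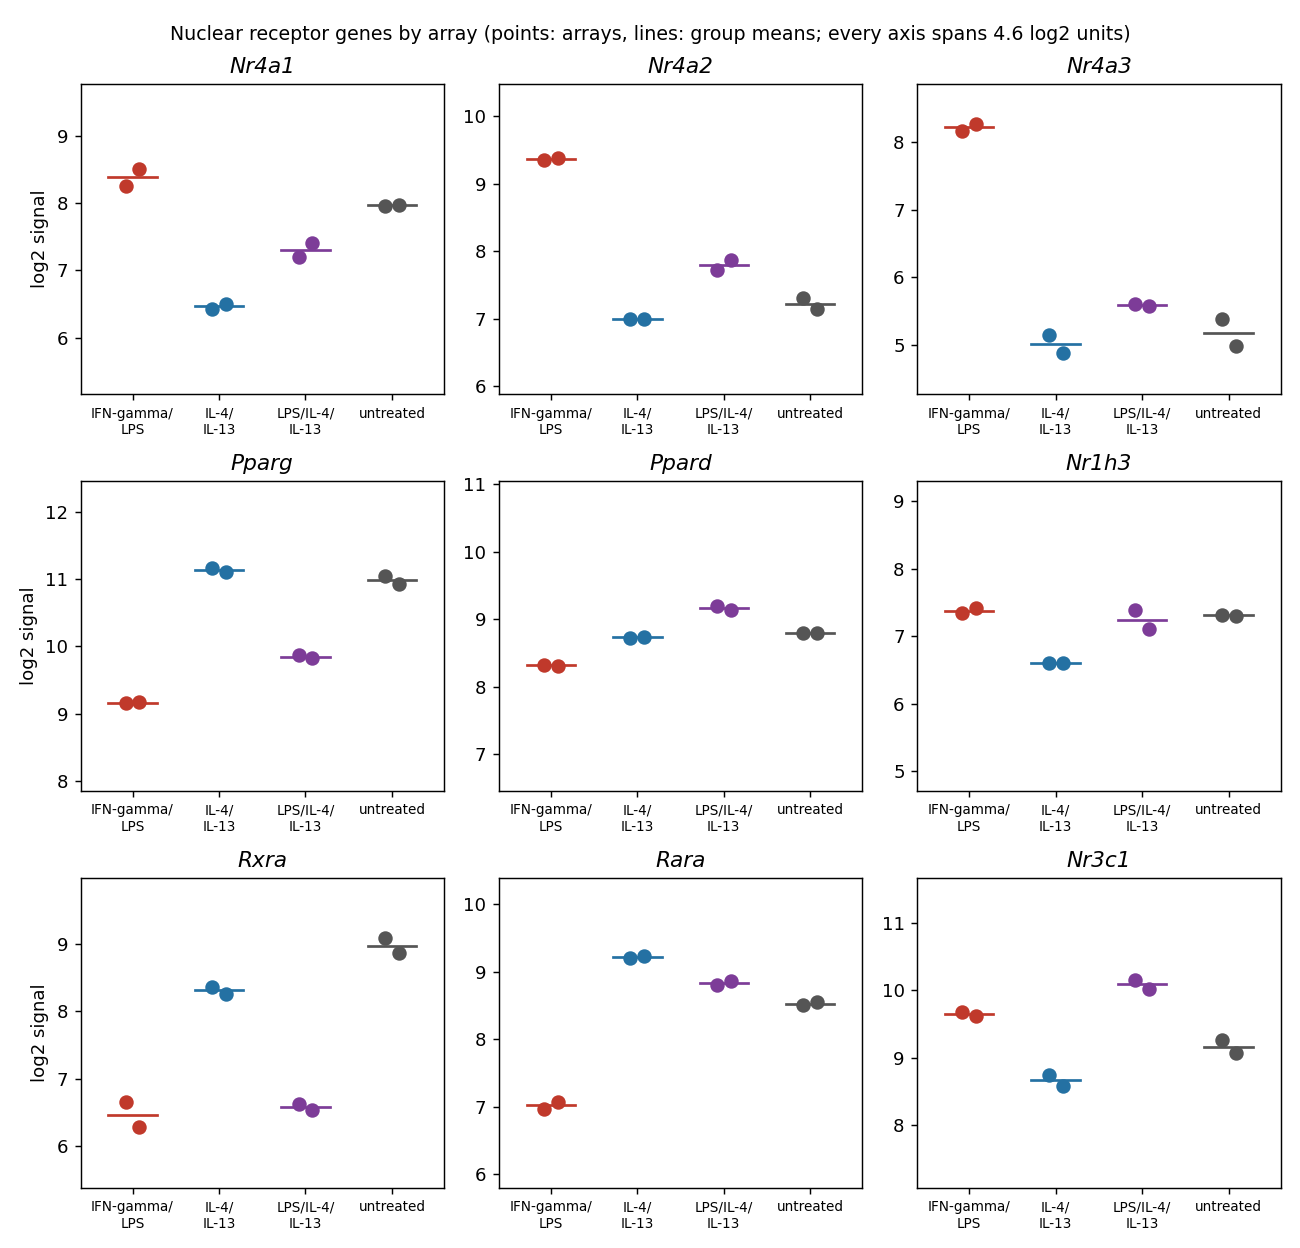
Log2 signal of the 9 measured receptor genes on each of the 8 arrays, with the treated groups left of the untreated group. Points are arrays, lines are group means, and each panel spans the same number of log2 units; Nr4a2 and Nr4a3 stand highest under IFN-gamma/LPS, and Rxra is low in both LPS groups.

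Among the NR4A genes, Nr4a2 and Nr4a3 rose most under IFN-gamma/LPS and less under LPS/IL-4/IL-13, while the largest change of Nr4a1 was a fall under IL-4/IL-13. Nr4a3, which encodes NOR1, had log2 signals of 8.17 and 8.27 in IFN-gamma/LPS cells, 5.14 and 4.87 in IL-4/IL-13 cells, 5.61 and 5.58 in LPS/IL-4/IL-13 cells, and 5.38 and 4.98 in untreated cells. The IFN-gamma/LPS arrays stood far above the other 6, and the IL-4/IL-13 and untreated arrays overlapped. The increase was 8.22-fold under IFN-gamma/LPS (3.04 ± 0.14, adjusted p = 3.36e-09). Under LPS/IL-4/IL-13 it was 0.41 ± 0.14 (adjusted p = 0.0325), a call lost without untreated array 2 (0.21, adjusted p = 0.295), without LPS/IL-4/IL-13 array 1 (adjusted p = 0.0916) or array 2 (adjusted p = 0.0802), after quantile normalization (0.28, adjusted p = 0.167) and with adjustment over all probe sets (adjusted p = 0.0849). Nr4a3 was 6.17-fold lower in LPS/IL-4/IL-13 cells than in IFN-gamma/LPS cells (-2.62 ± 0.14, adjusted p = 1.06e-07).

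Nr4a2, which encodes NURR1, had the same order of groups. Its signals were 9.36 and 9.38 in IFN-gamma/LPS cells, 7.0 and 6.99 in IL-4/IL-13 cells, 7.72 and 7.87 in LPS/IL-4/IL-13 cells, and 7.30 and 7.15 in untreated cells. The 4 groups did not overlap. Nr4a2 rose 4.42-fold under IFN-gamma/LPS (2.15 ± 0.10, adjusted p = 3.02e-09) and by 0.57 ± 0.10 under LPS/IL-4/IL-13 (adjusted p = 0.000459). The IL-4/IL-13 arrays lay below the untreated ones by an amount that did not pass (-0.23 ± 0.10, adjusted p = 0.129).

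Nr4a1, which encodes NUR77, differed from its relatives by falling under both treatments with IL-4/IL-13. Its signals were 8.25 and 8.51 in IFN-gamma/LPS cells, 6.43 and 6.51 in IL-4/IL-13 cells, 7.20 and 7.40 in LPS/IL-4/IL-13 cells, and 7.96 and 7.97 in untreated cells. Again the 4 groups did not overlap. It fell 2.82-fold under IL-4/IL-13 (-1.50 ± 0.12, adjusted p = 2.36e-06) and less under LPS/IL-4/IL-13 (-0.67 ± 0.12, adjusted p = 0.000431). The LPS/IL-4/IL-13 arrays lay 0.83 ± 0.12 above the IL-4/IL-13 arrays (adjusted p = 8.16e-05). The rise under IFN-gamma/LPS was small (0.42 ± 0.12, adjusted p = 0.00959) and was not called without IFN-gamma/LPS array 2 (0.28, adjusted p = 0.103) or without untreated array 1 (0.41, adjusted p = 0.0596).

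The promoters of the NR4A genes are shown because each of these genes rose under IFN-gamma/LPS, although Nr4a1 rose far less than Nr4a2 and Nr4a3. They come from RefSeq on build GRCm38.p6 and are the 250 bases before each annotated start, on the gene's own strand, at chr15:101266596-101266845 (plus strand) for Nr4a1, chr2:57124004-57124253 (minus strand) for Nr4a2 and chr4:48045055-48045304 (plus strand) for Nr4a3. Capitals mark TGACG on either strand, the core of the cyclic AMP response element bound by CREB and ATF factors.
Nr4a1: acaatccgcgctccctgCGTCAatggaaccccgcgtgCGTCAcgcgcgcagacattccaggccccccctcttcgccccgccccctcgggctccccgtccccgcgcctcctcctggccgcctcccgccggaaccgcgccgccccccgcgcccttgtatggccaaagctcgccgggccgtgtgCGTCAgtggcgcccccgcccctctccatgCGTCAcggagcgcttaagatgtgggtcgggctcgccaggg
Nr4a2: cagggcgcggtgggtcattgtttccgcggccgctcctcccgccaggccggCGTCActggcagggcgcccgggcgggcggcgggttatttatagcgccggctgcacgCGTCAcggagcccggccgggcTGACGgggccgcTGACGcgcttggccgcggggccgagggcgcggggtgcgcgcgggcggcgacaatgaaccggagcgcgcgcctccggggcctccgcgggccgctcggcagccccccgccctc
Nr4a3: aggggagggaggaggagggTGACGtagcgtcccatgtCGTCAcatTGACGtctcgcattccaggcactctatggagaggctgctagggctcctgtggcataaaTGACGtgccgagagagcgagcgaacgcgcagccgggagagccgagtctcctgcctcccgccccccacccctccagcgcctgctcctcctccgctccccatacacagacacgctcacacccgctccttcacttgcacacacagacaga

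Each of the 3 NR4A stretches held 4 copies of TGACG. Of 32851 RefSeq promoter windows of 300 bases, 20.8% held at least 1 copy and 0.231% held 4 or more. The stretches are rich in G and C, at 74.4% for Nr4a1, 80.0% for Nr4a2 and 63.6% for Nr4a3, and the shares over all windows were not matched on base composition. The full palindrome TGACGTCA, present in 1.79% of windows, did not occur in these letters. The interferon-type site TTCNNNGAA (GAS), in 8.30% of windows, had a match in 1 of the 4 Rara windows and in none of the NR4A windows. A kappa B site, held by 4.51% of windows, was matched in the Nr4a1 window and in 2 overlapping Rara windows. The LXR element DR4, in 0.0152%, was matched in none of the windows read. No window of Nr3c1 was read for any of these motifs. A match describes letters and not binding.

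Pparg, the master regulator of lipid storage genes and a receptor induced by IL-4 in other macrophage settings, fell in both LPS groups. Its signals were 9.16 and 9.17 in IFN-gamma/LPS cells, 11.16 and 11.10 in IL-4/IL-13 cells, 9.87 and 9.83 in LPS/IL-4/IL-13 cells, and 11.05 and 10.92 in untreated cells. The decrease was 3.53-fold under IFN-gamma/LPS (-1.82 ± 0.07, adjusted p = 1.02e-09) and 2.20-fold under LPS/IL-4/IL-13 (-1.14 ± 0.07, adjusted p = 8.68e-08). Under IL-4/IL-13 alone both arrays lay above both untreated arrays, but the difference did not pass (0.15 ± 0.07, adjusted p = 0.197). LPS/IL-4/IL-13 cells had more Pparg signal than IFN-gamma/LPS cells (0.69 ± 0.07, adjusted p = 3.31e-05).

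Ppard, a more widely expressed PPAR, went opposite ways in both LPS groups. Its signals were 8.32 and 8.31 in IFN-gamma/LPS cells, 8.72 and 8.74 in IL-4/IL-13 cells, 9.20 and 9.14 in LPS/IL-4/IL-13 cells, and 8.79 and 8.80 in untreated cells. Relative to untreated cells it fell by 0.48 on the log2 scale under IFN-gamma/LPS (SE 0.08, adjusted p = 0.000367) and rose by 0.38 ± 0.08 under LPS/IL-4/IL-13 (adjusted p = 0.00266). The direct difference between LPS/IL-4/IL-13 and IFN-gamma/LPS was 0.86 ± 0.08 (adjusted p = 1.25e-05). After quantile normalization the fall under IFN-gamma/LPS was -0.19 and was not called (adjusted p = 0.0622).

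Of 12 measured PPAR target genes, 9 fell and 0 rose under IFN-gamma/LPS, with a list median of -0.76, where 28.4% of all genes fell. Angptl4, a secreted inhibitor of lipoprotein lipase, fell by 2.04 on the log2 scale there, and Cpt1a, the gatekeeper of mitochondrial fatty acid oxidation, by 1.83. Under IL-4/IL-13 7 fell and 0 rose (median -0.39; 12.3% of all genes fell), and 4 fell without untreated array 1. Under LPS/IL-4/IL-13 8 fell and 1 rose (median -0.65; 25.4% fell and 20.3% rose). The exception was Fabp4, a fatty acid carrier, with 6.65 and 6.69 in IFN-gamma/LPS cells, 5.99 and 6.09 in IL-4/IL-13 cells, 8.31 and 8.16 in LPS/IL-4/IL-13 cells, and 6.59 and 6.47 in untreated cells. Fabp4 rose by 1.71 ± 0.11 in LPS/IL-4/IL-13 cells (adjusted p = 4.92e-08), in which Pparg itself was lower than in untreated cells.

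Nr1h3, which encodes LXR-alpha, changed only under IL-4/IL-13 among the 3 comparisons with untreated cells. Its signals were 7.34 and 7.42 in IFN-gamma/LPS cells, 6.60 and 6.60 in IL-4/IL-13 cells, 7.39 and 7.11 in LPS/IL-4/IL-13 cells, and 7.32 and 7.30 in untreated cells. The decrease under IL-4/IL-13 was -0.71 ± 0.11 (adjusted p = 0.000704), and the LPS/IL-4/IL-13 arrays lay 0.65 ± 0.11 above the IL-4/IL-13 arrays (adjusted p = 0.000451). The LPS/IL-4/IL-13 arrays lay on both sides of the untreated ones (-0.06 ± 0.11, adjusted p = 0.684). The difference under IFN-gamma/LPS was 0.07 ± 0.11 (adjusted p = 0.615). Both depended on the scaling: after quantile normalization Nr1h3 was higher under IFN-gamma/LPS (0.46, adjusted p = 0.00177) and the LPS/IL-4/IL-13 difference turned to 0.23 (adjusted p = 0.0763).

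Of 14 measured LXR target genes, 8 fell and 2 rose under IFN-gamma/LPS (median -0.32; 28.4% of all genes fell and 23.6% rose). Under IL-4/IL-13 6 fell and 1 rose (median -0.14; 12.3% fell and 7.83% rose). Under LPS/IL-4/IL-13 11 fell and 0 rose (median -0.58; 25.4% fell and 20.3% rose). The 2 that rose under IFN-gamma/LPS were 1 without IFN-gamma/LPS array 1 or untreated array 2. Abca1, the pump that loads cholesterol onto apolipoprotein A-I, had signals of 7.91 and 7.95 in IFN-gamma/LPS cells, 10.05 and 10.08 in IL-4/IL-13 cells, 9.84 and 9.71 in LPS/IL-4/IL-13 cells, and 11.32 and 11.30 in untreated cells. It was lowest where Nr1h3 signal was close to that of untreated cells. The 2 that rose under IFN-gamma/LPS were Mertk and Mylip. Mylip, which encodes the LDL receptor-degrading ligase IDOL, rose by 0.29 ± 0.08 under IFN-gamma/LPS and fell under IL-4/IL-13 (-1.20 ± 0.08) and under LPS/IL-4/IL-13 (-1.67 ± 0.08). Mertk, an engulfment receptor, rose by 0.59 ± 0.08 under IFN-gamma/LPS, and it fell by 1.51 on the log2 scale under IL-4/IL-13 and by 0.73 under LPS/IL-4/IL-13.

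Rxra, the shared partner of PPAR, LXR and RAR proteins, was low wherever LPS was present. Its signals were 6.65 and 6.28 in IFN-gamma/LPS cells, 8.36 and 8.26 in IL-4/IL-13 cells, 6.62 and 6.53 in LPS/IL-4/IL-13 cells, and 9.08 and 8.86 in untreated cells. It fell 5.68-fold under IFN-gamma/LPS (-2.50 ± 0.13, adjusted p = 8.59e-09) and 5.26-fold under LPS/IL-4/IL-13 (-2.40 ± 0.13, adjusted p = 1.61e-08). The LPS groups overlapped, and their difference did not pass (0.11 ± 0.13, adjusted p = 0.695). Under IL-4/IL-13 the fall was -0.66 ± 0.13 (adjusted p = 0.00349), and it was not called without untreated array 1 (-0.55, adjusted p = 0.0659). The related receptor gene Rxrb changed by -1.34 ± 0.10 under IFN-gamma/LPS (adjusted p = 1.98e-07) and by -1.32 ± 0.10 under LPS/IL-4/IL-13 (adjusted p = 2.92e-07), and its difference under IL-4/IL-13 did not pass (-0.17 ± 0.10, adjusted p = 0.252).

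Rara, the retinoic acid receptor alpha gene, was low under IFN-gamma/LPS and slightly above the untreated level under LPS/IL-4/IL-13. Its signals were 6.97 and 7.07 in IFN-gamma/LPS cells, 9.21 and 9.23 in IL-4/IL-13 cells, 8.81 and 8.87 in LPS/IL-4/IL-13 cells, and 8.51 and 8.55 in untreated cells. All 4 groups stood apart. It fell 2.85-fold under IFN-gamma/LPS (-1.51 ± 0.09, adjusted p = 2.51e-08) and rose under IL-4/IL-13 (0.69 ± 0.09, adjusted p = 0.000154). LPS/IL-4/IL-13 cells had 3.53-fold more Rara signal than IFN-gamma/LPS cells (1.82 ± 0.09, adjusted p = 4.49e-08). The rise of LPS/IL-4/IL-13 over untreated cells was 0.31 ± 0.09 (adjusted p = 0.013), and it was not called without untreated array 1 (0.29, adjusted p = 0.0952) or untreated array 2 (0.33, adjusted p = 0.0556).

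Of 13 measured retinoid pathway genes, 7 rose and 2 fell under IFN-gamma/LPS (median 0.27), 4 rose and 0 fell under IL-4/IL-13 (median 0.17), and 5 rose and 1 fell under LPS/IL-4/IL-13 (median 0.21). Of all genes 23.6% rose and 28.4% fell under IFN-gamma/LPS, 7.83% and 12.3% under IL-4/IL-13, and 20.3% and 25.4% under LPS/IL-4/IL-13, where the 6 retinoid genes called were close to the share of 45.6% over all genes. The 7 became 4 without IFN-gamma/LPS array 2 or untreated array 1, and the 4 became 1 or 2 without any 1 array of the groups compared. Dhrs3, which turns retinal back to retinol, had signals of 9.55 and 9.68 in IFN-gamma/LPS cells, 12.72 and 12.77 in IL-4/IL-13 cells, 10.93 and 10.82 in LPS/IL-4/IL-13 cells, and 12.40 and 12.39 in untreated cells. It fell by 2.78 under IFN-gamma/LPS and by 1.52 under LPS/IL-4/IL-13 and rose by 0.35 under IL-4/IL-13, so that in LPS/IL-4/IL-13 cells it was below the untreated level, where Rara was above it. Dhrs9, a retinol dehydrogenase, rose under all 3 treatments, by 1.36 ± 0.09, 1.91 ± 0.09 and 2.61 ± 0.09 under IFN-gamma/LPS, under IL-4/IL-13 and under LPS/IL-4/IL-13.

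Nr3c1, the glucocorticoid receptor gene, was raised by both treatments with LPS and lowered by IL-4/IL-13. Its signals were 9.68 and 9.62 in IFN-gamma/LPS cells, 8.75 and 8.59 in IL-4/IL-13 cells, 10.16 and 10.02 in LPS/IL-4/IL-13 cells, and 9.26 and 9.07 in untreated cells. The 4 groups did not overlap, and LPS/IL-4/IL-13 was highest. It rose by 0.93 ± 0.10 under LPS/IL-4/IL-13 (adjusted p = 6.29e-06) and by 0.48 ± 0.10 under IFN-gamma/LPS (adjusted p = 0.00116). LPS/IL-4/IL-13 cells had 2.68-fold more signal than IL-4/IL-13 cells (1.42 ± 0.10, adjusted p = 1.58e-07). The fall under IL-4/IL-13 was -0.49 ± 0.10 (adjusted p = 0.00337), and it was not called without untreated array 1 (-0.40, adjusted p = 0.0688) or IL-4/IL-13 array 2 (-0.41, adjusted p = 0.0541).

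Genes induced by glucocorticoids in many tissues moved in both directions. Of 12 measured, 3 rose and 5 fell under IFN-gamma/LPS (median -0.23), 1 rose and 6 fell under IL-4/IL-13 (median -0.12), and 3 rose and 5 fell under LPS/IL-4/IL-13 (median -0.20). Over all genes the shares were 23.6% and 28.4%, 7.83% and 12.3%, and 20.3% and 25.4% in the same order, so the numbers that rose were near the background. Tsc22d3, which encodes the glucocorticoid-induced leucine zipper protein GILZ, fell by 2.15 on the log2 scale under IFN-gamma/LPS (SE 0.15, adjusted p = 9.63e-08), by 0.48 under IL-4/IL-13 (adjusted p = 0.038) and by 1.24 under LPS/IL-4/IL-13 (adjusted p = 1.65e-05). Dusp1, a MAP kinase phosphatase that LPS also induces, rose by 2.10 ± 0.08 under IFN-gamma/LPS and by 2.26 ± 0.08 under LPS/IL-4/IL-13. It fell under IL-4/IL-13 (-1.11 ± 0.08, adjusted p = 1.11e-06).

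**Figure D2:**
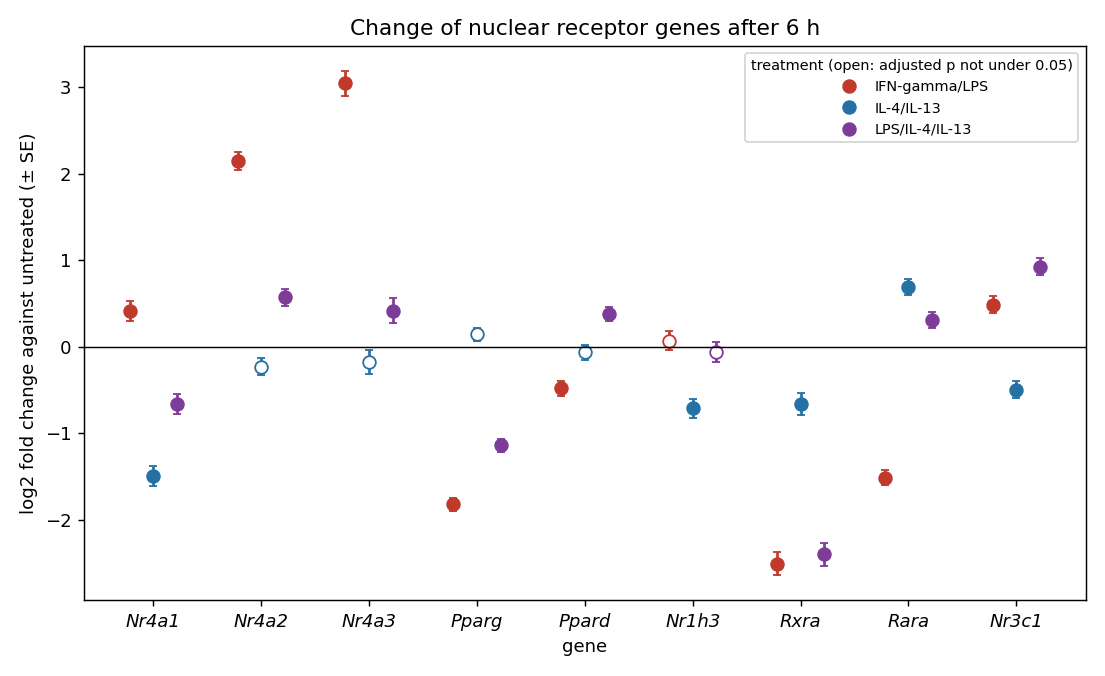
Log2 fold change ± SE against untreated cells for each receptor gene under IFN-gamma/LPS, under IL-4/IL-13 and under LPS/IL-4/IL-13, from limma over 2 arrays per group. Filled points passed an adjusted p of 0.05 and open points did not; Nr4a3 is the highest point at 3.04 and Rxra the lowest at -2.50, both under IFN-gamma/LPS.

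Set directly against each other, LPS/IL-4/IL-13 and IFN-gamma/LPS differed in 7 of the 9 genes, where 19.7% of all genes differed. Rara, Ppard, Pparg and Nr3c1 were higher in LPS/IL-4/IL-13 cells, as were 12.1% of all genes, and Nr4a3, Nr4a2 and Nr4a1 were lower, as were 7.62%. Nr1h3 (-0.13 ± 0.11, adjusted p = 0.546) and Rxra did not pass. LPS/IL-4/IL-13 differed from IL-4/IL-13 in 9 of 9 genes, where 36.7% of all genes differed: Nr3c1, Nr4a1, Nr4a2, Nr1h3, Nr4a3 and Ppard were higher (14.1% of all genes were) and Rxra, Pparg and Rara lower (22.6%). In that comparison Nr4a3 (0.59 ± 0.14, adjusted p = 0.00536) was not called without IL-4/IL-13 array 2 (adjusted p = 0.0677). IFN-gamma/LPS differed from IL-4/IL-13 in 9 of 9, where 41.6% of all genes differed, with 5 higher, among them Nr4a3 (9.29-fold) and Nr4a2 (5.19-fold), and 4 lower, against 15.5% and 26.1% of all genes. The 3 comparisons share arrays with each other and with those against untreated cells.

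The LPS/IL-4/IL-13 change was then compared with the sum of the changes under IFN-gamma/LPS and under IL-4/IL-13, on the log2 scale. The measured change differed from that sum in 8 of 9 genes, where 20.1% of all genes differed. Because the combined cells had no IFN-gamma, a missing IFN-gamma effect and an effect of IL-4/IL-13 on the LPS response cannot be told apart. Nr4a3 averaged 5.59 in LPS/IL-4/IL-13 cells, against 8.04 for the sum (-2.45 ± 0.20, adjusted p = 4.65e-06). Nr4a2 averaged 7.79, against 9.14 for the sum (-1.34 ± 0.14, adjusted p = 3.07e-05). These 2 of the 9 were below their sum, where 6.87% of all genes were.

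The other 6 of the 8 lay above it, where 13.2% of all genes did. Rara averaged 8.84 in LPS/IL-4/IL-13 cells, against 7.71 for the sum (1.13 ± 0.13, adjusted p = 4.96e-05), and Nr3c1 10.09 against 9.16 (0.94 ± 0.14, adjusted p = 0.000449). Ppard averaged 9.17 against 8.25 (0.92 ± 0.12, adjusted p = 0.00015). Pparg lay 0.54 ± 0.11 above its sum (adjusted p = 0.00321), Rxra 0.77 ± 0.18 (adjusted p = 0.0114) and Nr1h3 0.58 ± 0.16 (adjusted p = 0.0218). Adjustment over all probe sets ended the calls of Rxra (adjusted p = 0.0516) and Nr1h3 (adjusted p = 0.0645), and quantile normalization that of Nr1h3 (0.36, adjusted p = 0.0985). Leaving out 1 array ended the Rxra call for IL-4/IL-13 array 2 (adjusted p = 0.059) and untreated array 1 (adjusted p = 0.0767). The Nr1h3 call ended without any 1 of IFN-gamma/LPS array 1, LPS/IL-4/IL-13 array 1, both IL-4/IL-13 arrays and both untreated arrays in turn (adjusted p from 0.0585 to 0.0895). Nr4a1 did not pass (0.41 ± 0.16, adjusted p = 0.0989), but it was called without IFN-gamma/LPS array 2 (adjusted p = 0.049) or LPS/IL-4/IL-13 array 1 (adjusted p = 0.0487).

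**Figure D3:**
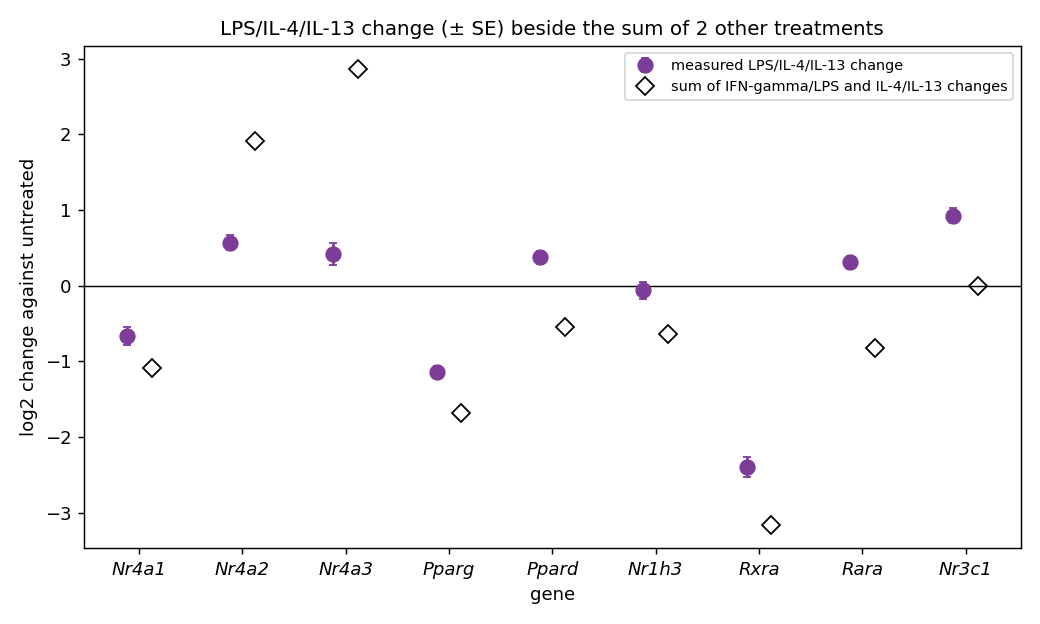
Log2 change against untreated cells measured under LPS/IL-4/IL-13 (filled circles, ± SE, 2 arrays per group) beside the sum of the changes under IFN-gamma/LPS and IL-4/IL-13 (open diamonds) for the 9 receptor genes. Nr4a2 and Nr4a3 are the genes whose circle lies below the diamond, by 1.34 and 2.45.

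Some enzymes that make or remove ligands had large changes in both LPS groups, while others, such as Cyp7b1 and Hsd11b1, passed in neither. Ch25h, whose product 25-hydroxycholesterol is an LXR ligand, had signals of 11.74 and 11.69 in IFN-gamma/LPS cells, 7.75 and 7.68 in IL-4/IL-13 cells, 11.76 and 11.94 in LPS/IL-4/IL-13 cells, and 6.12 and 6.20 in untreated cells. Cyp27a1, the source of 27-hydroxycholesterol, went the other way and fell by 2.19 on the log2 scale under IFN-gamma/LPS and by 2.56 under LPS/IL-4/IL-13. Hpgds, which makes the prostaglandin D that gives rise to PPAR-gamma ligands, fell under all 3 treatments. The falls were 1.99 under IFN-gamma/LPS (adjusted p = 3.94e-09), 1.96 under IL-4/IL-13 (adjusted p = 6.14e-08) and 2.45 under LPS/IL-4/IL-13 (adjusted p = 7.85e-10; SE 0.09 each). Of the other prostaglandin enzyme genes measured, Ptgs2 and Ptges rose in both LPS groups. Ptgds rose under IFN-gamma/LPS (0.365 ± 0.12, adjusted p = 0.0243) and did not pass under LPS/IL-4/IL-13 (0.275 ± 0.12, adjusted p = 0.0845). Ptgs2 rose by 6.375 under IFN-gamma/LPS and by 6.275 under LPS/IL-4/IL-13, and Ptges by 3.615 and 5.24. Of 12 measured enzymes, 5 rose and 3 fell under IFN-gamma/LPS, 2 rose and 3 fell under IL-4/IL-13, and 4 rose and 3 fell under LPS/IL-4/IL-13, with medians of 0.25, 0.12 and 0.27, where 51.9%, 20.2% and 45.6% of all genes changed. The 5 that rose under IFN-gamma/LPS were 3 without IFN-gamma/LPS array 2, untreated array 1 or untreated array 2.

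Among 16 measured coactivators and corepressors, 5 rose and 7 fell under IFN-gamma/LPS (median 0.00), 3 rose and 5 fell under IL-4/IL-13 (median -0.02), and 2 rose and 5 fell under LPS/IL-4/IL-13 (median -0.03). Over all genes 51.9%, 20.2% and 45.6% changed, and the 7 of 16 under LPS/IL-4/IL-13 were close to that background. The 5 that fell under IL-4/IL-13 were 3 without IL-4/IL-13 array 1 or untreated array 2, and the 2 that rose under LPS/IL-4/IL-13 were 1 without either untreated array. Ppargc1b, which encodes the PPAR coactivator PGC-1beta, had signals of 7.63 and 7.84 in IFN-gamma/LPS cells, 9.04 and 8.91 in IL-4/IL-13 cells, 6.35 and 6.19 in LPS/IL-4/IL-13 cells, and 6.35 and 6.36 in untreated cells. Its LPS/IL-4/IL-13 arrays thus lay beside the untreated ones, 2.71 below IL-4/IL-13 on the log2 scale (-2.71 ± 0.11). Ncoa1, the steroid receptor coactivator SRC-1 gene, fell by 1.88 under IFN-gamma/LPS, by 0.485 under IL-4/IL-13 and by 0.58 under LPS/IL-4/IL-13. Tbl1xr1, a subunit of the NCoR corepressor complex, fell by 1.82, 0.69 and 2.41 under IFN-gamma/LPS, under IL-4/IL-13 and under LPS/IL-4/IL-13.

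Of the 39 other nuclear receptor genes, 36 were measured. In untreated cells 12 of the 36 had signals above the median of all genes. Under IFN-gamma/LPS 11 rose and 10 fell (median 0.17), under IL-4/IL-13 5 rose and 5 fell (median 0.17), and under LPS/IL-4/IL-13 8 rose and 10 fell (median 0.14). Except for those that rose under IL-4/IL-13, these shares were near those over all genes, of which 23.6% rose and 28.4% fell, 7.83% and 12.3%, and 20.3% and 25.4% in the same order. Of the numbers that rose, 11 became 4 and 8 became 1 without untreated array 1, 11 became 6 without IFN-gamma/LPS array 2 and 7 without untreated array 2, 8 became 4 without either LPS/IL-4/IL-13 array and 3 without untreated array 2, and 5 became 0 without any 1 IL-4/IL-13 or untreated array and 3 without either IFN-gamma/LPS array. The 5 that fell under IL-4/IL-13 became 3 without IL-4/IL-13 array 2 or either untreated array. Vdr, the vitamin D receptor gene and an RXR partner, had signals of 9.13 and 8.91 in IFN-gamma/LPS cells, 6.03 and 5.97 in IL-4/IL-13 cells, 6.74 and 6.75 in LPS/IL-4/IL-13 cells, and 5.69 and 5.58 in untreated cells. Its increase under IFN-gamma/LPS was 3.38 ± 0.11 (adjusted p = 1.26e-10), and the LPS/IL-4/IL-13 arrays lay 2.27 below those of IFN-gamma/LPS (-2.27 ± 0.11). Thra, a thyroid hormone receptor gene, fell under all 3 treatments, by 1.76, 0.73 and 1.57 in the same order.

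**Figure D4:**
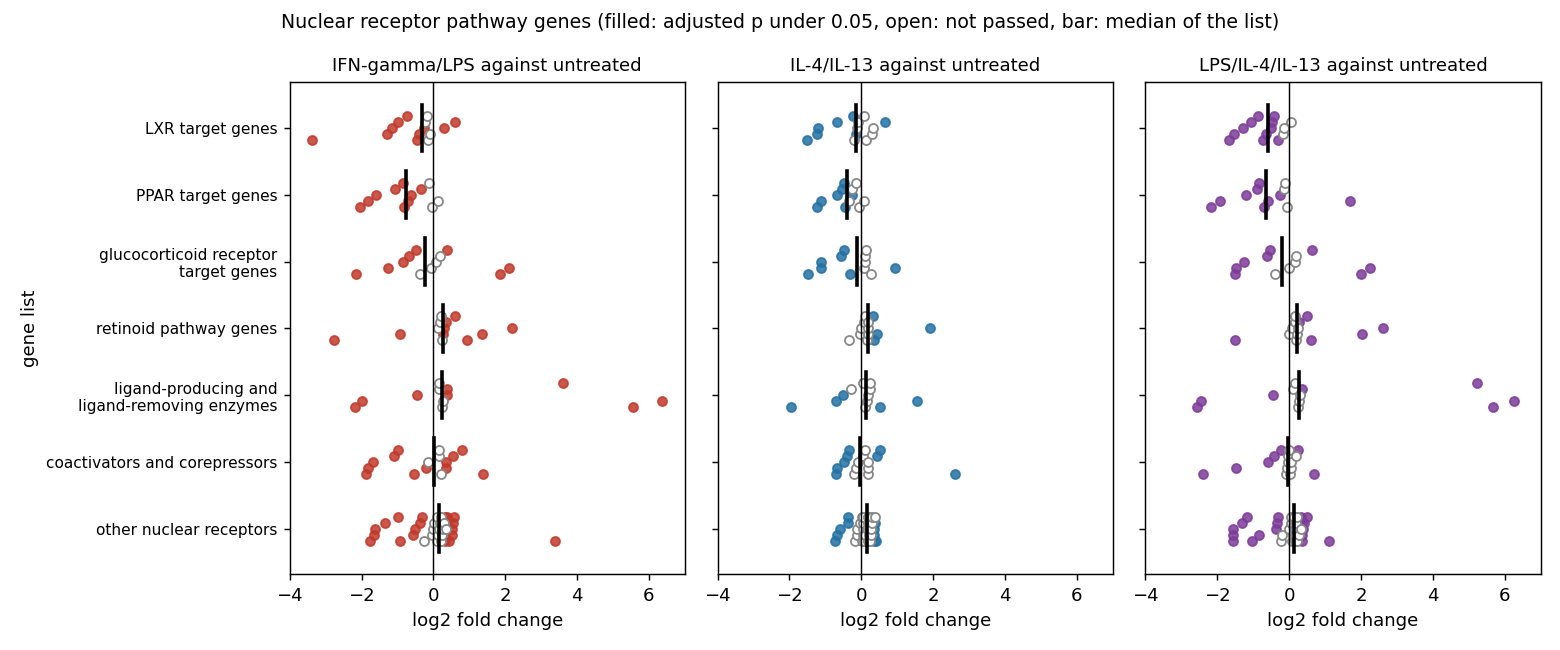
Log2 fold change against untreated cells of the measured genes of 7 nuclear receptor pathway lists, 1 panel per treatment; each point is a gene, filled where its adjusted p was under 0.05, and the bar is the median of the list. PPAR and LXR target genes lie mostly below 0 in all 3 panels, with Fabp4 at 1.71 as the exception among PPAR targets under LPS/IL-4/IL-13.

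The genes whose signal followed 7 of the receptors most closely over the 8 arrays are given as a description, since the arrays fall into 4 groups. Ppard and Nr1h3, whose group means spanned 0.85 and 0.78 log2 units, were left out. Matches were sought among 4357 genes with group means spanning at least 1 log2 unit. Nr4a3 was matched best by the deubiquitinase gene Usp31 (Pearson r = 0.9992) and Nr4a2 by the purinergic receptor gene P2ry13 (r = 0.9975). Pparg was matched by Ap1b1 (r = 0.9991) and by Crat, the carnitine acetyltransferase gene (r = 0.9985). Nr4a1 was followed by Mertk (r = 0.9908), Rxra by Hddc3 (r = 0.9985), Rara by the serum response factor gene Srf (r = 0.997) and Nr3c1 by Zkscan6 (r = 0.9932).

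Some markers of other cell types also moved with the treatments. Of all genes 23.6% rose and 28.4% fell under IFN-gamma/LPS. These shares were 7.83% and 12.3% under IL-4/IL-13, and 20.3% and 25.4% under LPS/IL-4/IL-13. Of 6 dendritic cell markers, 4 rose and 0 fell under IFN-gamma/LPS, and the array mean of the list was 6.29 to 6.30 in IFN-gamma/LPS cells, 5.72 to 5.76 in IL-4/IL-13 cells, 6.06 to 6.16 in LPS/IL-4/IL-13 cells, and 5.44 to 5.50 in untreated cells. Of 4 mast cell and basophil markers, 2 rose in each LPS group, led by Hdc, the histidine decarboxylase gene (3.65 ± 0.13 and 4.50 ± 0.13 under IFN-gamma/LPS and LPS/IL-4/IL-13). Under IL-4/IL-13 1 rose and 0 fell, and the 1 was again Hdc (1.205 ± 0.13). Of 5 fibroblast markers, 1 rose in each LPS group, Dcn, which is near the share over all genes. Of 5 T and NK lymphocyte markers, 2 rose under IFN-gamma/LPS, 2 under IL-4/IL-13 and 0 under LPS/IL-4/IL-13. Of 3 measured erythroid markers, 2 rose in each LPS group and 0 under IL-4/IL-13. Of 3 measured B lymphocyte markers, 1 fell under IFN-gamma/LPS and 0 changed under the other treatments. Of 6 neutrophil markers, 0 rose and 2 fell under IFN-gamma/LPS, 1 rose and 0 fell under IL-4/IL-13, and 1 rose and 2 fell under LPS/IL-4/IL-13, among them S100a8 (1.16 ± 0.20) and Ngp (-0.90 ± 0.18). Of 7 macrophage markers, 1 rose and 5 fell under IFN-gamma/LPS, 0 rose and 3 fell under IL-4/IL-13, among them Cd14 (-1.42 ± 0.08), and 2 rose and 4 fell under LPS/IL-4/IL-13. The array mean of the macrophage list was lowest in IL-4/IL-13 cells, at 11.78 to 11.79. The part of these cell types in the receptor results was not tested.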

How the data were processed

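Total RNA of 8 macrophage samples was labelled with biotin and run on Affymetrix mouse gene arrays, each sample on its own, per the labels' protocols. The deposited value table holds 1 log2 signal per probe set and array, from 1.46 to 13.71. The labels call these MAS5 signals, but their range is that of a log2 scale. How the authors corrected background or normalized arrays is not given in the sources used here. There are no detection calls, so no level shows absence, and precision rests on 2 arrays per group.

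Of 35556 probe sets, 21789 carried exactly 1 gene symbol in the platform annotation. For 999 genes with several, the probe set with the highest mean over all arrays was kept, which left 19938 genes. Each receptor analysed had 1 such probe set. All 8 arrays entered 1 fit of 4 group means (limma 3.58.1 under R 4.3.3; lmFit and eBayes with trend), which left 4 residual and gave 7.55 prior degrees of freedom. The fit was also run on simulated arrays with independent noise and far fewer changed genes than were called here. That run does not show its error rate on these data. Each of 7 contrasts was adjusted by Benjamini-Hochberg over all 19938 genes. The receptors, the 8 other pathway lists and the 8 marker lists were chosen with earlier results of these data known, so list counts are descriptions. The shares over all genes beside them were not matched on signal. In untreated cells 11 of 12 PPAR targets, 12 of 14 LXR targets and 15 of 16 coregulators lay above the median of all genes. Of the retinoid pathway genes 5 of 13 did, and of the ligand enzymes 4 of 12. From each list the text names up to 4 called genes with the largest change per comparison with untreated cells, and for each receptor the genes with the highest Pearson r. The replicate numbers in the labels were not taken as pairs. Promoter sequences are from RefSeq (GRCm38.p6). No promoter window of Nr3c1 was read, and its sequence is not shown.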

Additional observations from a re-analysis of the deposited data

Results flagged for a closer look

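In 8 of the 9 receptor genes the change from untreated to IFN-gamma/LPS differed from the change from IL-4/IL-13 to LPS/IL-4/IL-13, by limma's test of the difference itself. That test is the comparison with the sum given earlier, put in other words, and not a separate result. The second change minus the first, on the log2 scale, was -2.45 for Nr4a3 and -1.34 for Nr4a2. It was 1.13 for Rara, 0.94 for Nr3c1, 0.92 for Ppard, 0.77 for Rxra, 0.58 for Nr1h3 and 0.54 for Pparg. The calls of Rxra and Nr1h3 ended under several of the alternatives given earlier for the sum. Of all 19938 genes 20.1% differed in this way. Only the first change includes IFN-gamma, so an effect of IFN-gamma and an effect of IL-4/IL-13 cannot be told apart.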

How the results depend on the processing

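The receptor results were recomputed under 16 alternatives: quantile normalization, median centring, leaving out the dimmest 40% of genes, no variance trend, only the 4 arrays compared, a replicate block, the mean over probe sets, adjustment over all probe sets, and leaving out each array. Of 999 such values of the 9 genes, 965 kept their direction and their side of the threshold, 25 were no longer called, 3 became called and 6 changed sign. All 6 came from differences that had not passed. Only quantile normalization, median centring and leaving out an array of a compared group could change a fold change. The other alternatives could change only p-values, since each receptor had 1 probe set and the groups were of equal size. The 965 thus include values whose direction could not change. After quantile normalization Ppard under IL-4/IL-13 turned to 0.0563 and Nr1h3 under LPS/IL-4/IL-13 to 0.23 against untreated cells. Leaving out 1 array at a time gave -0.375 to 0.025 for Nr4a3 under IL-4/IL-13 and -0.20 to 0.08 for Nr1h3 under LPS/IL-4/IL-13 against untreated, and -0.27 to 0.01 for Nr1h3 and -0.075 to 0.295 for Rxra in LPS/IL-4/IL-13 cells set against IFN-gamma/LPS cells. The count of 5 receptors called under IL-4/IL-13 ranged from 3 to 5, that of 8 under LPS/IL-4/IL-13 from 6 to 8 and that of 8 that differed from the sum from 6 to 9. With the replicate block the counts were 8, 5 and 8 under IFN-gamma/LPS, under IL-4/IL-13 and under LPS/IL-4/IL-13 against untreated, 7, 9 and 9 between treatments and 8 against the sum, so it changed no receptor call, and of the pathway list counts it moved only the 5 other receptors that rose under IL-4/IL-13, to 3, by over 1.5 times. Same-numbered arrays deviated together with correlations from -0.358 to 0.217. Over all genes, 4020 called under IL-4/IL-13 became 2063 without untreated array 1, 2380 without untreated array 2 and 2244 without IL-4/IL-13 array 2. The 3926 that differed between LPS/IL-4/IL-13 and IFN-gamma/LPS became 2603 in a fit of those 4 arrays, and the 4004 that differed from the sum became 2478 without untreated array 1. Median centring moved the share of higher calls under IL-4/IL-13 from 38.8% to 28.6%, and quantile normalization that against the sum from 65.8% to 55.2%. After quantile normalization the 11, 5 and 8 other receptors that rose were 7, 1 and 4, and 8 and not 5 coregulators fell under LPS/IL-4/IL-13. The causes were not tested.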

Other observations

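Immediate early genes, like the NR4A genes, are switched on within minutes of many stimuli. Of 10 measured at 6 h, 6 rose and 2 fell under IFN-gamma/LPS (median 0.55), 2 rose and 2 fell under IL-4/IL-13 (median -0.10), and 8 rose and 0 fell under LPS/IL-4/IL-13 (median 1.18), where 51.9%, 20.2% and 45.6% of all genes changed. Btg2, an antiproliferative gene, had the order of groups seen for Nr4a2 and Nr4a3, with changes of 0.55 ± 0.09 under IFN-gamma/LPS, -0.62 ± 0.09 under IL-4/IL-13 and 0.39 ± 0.09 under LPS/IL-4/IL-13. Unlike for Nr4a2 and Nr4a3, its step from IFN-gamma/LPS down to LPS/IL-4/IL-13 did not pass. Of the 10 genes, 5 were higher in LPS/IL-4/IL-13 than in IFN-gamma/LPS cells and 0 lower, against 12.1% and 7.62% of all genes. Egr2 had log2 signals of 7.70 and 7.82 in IFN-gamma/LPS cells, 11.24 and 11.23 in IL-4/IL-13 cells, 10.36 and 10.54 in LPS/IL-4/IL-13 cells, and 8.42 and 8.57 in untreated cells, so it was lowest where Nr4a2 and Nr4a3 were highest. Egr1 rose by 0.54 ± 0.15 under IFN-gamma/LPS (limma adjusted p = 0.00983) and by 1.72 ± 0.15 under LPS/IL-4/IL-13 (limma adjusted p = 1.17e-06). Junb, an AP-1 subunit gene, rose by similar amounts in both LPS groups, by 2.39 ± 0.10 under IFN-gamma/LPS and by 2.34 ± 0.10 under LPS/IL-4/IL-13, and the LPS/IL-4/IL-13 arrays differed from the IFN-gamma/LPS arrays by -0.05 ± 0.10.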
